A study of Homo sapiens with 12 samples.

Results

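CD52, CRYM, BOK, FGFR1, IL2RB, P2RX5, HSPG2, ITGB4 and ATP1B2 are 9 genes, most of them coding for proteins of the cell surface, whose transcripts differed between guide groups of HUDEP-2 cells. They were taken from the gene table by symbol, 9 of 54628 genes listed, and were chosen by their levels in the PBS libraries, where they differed between the guides. The values after PBS are therefore a description with no test. All 9 genes had enough counts to be tested, among 15492 genes that did.

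HUDEP-2 is an immortalised human erythroid precursor line made from umbilical cord blood, and it grows in medium with SCF (stem cell factor), the ligand of the receptor tyrosine kinase Kit. RNA-seq covered 12 libraries in 4 groups of 3. All cells were infected with a lentivirus that carried dCas9 fused to the KRAB repressor domain, GFP and a single guide, which was either scrambled (sgControl) or directed to an element near EGR1 (sgEGR1). All were then starved of growth factors for 5 h and treated for 1 h with PBS or with 50 ng/mL SCF. The groups were thus sgControl PBS, sgControl SCF, sgEGR1 PBS and sgEGR1 SCF. Infected cells were sorted by GFP, so each group was a pool and not a clone, and with 1 guide per arm an effect of the target and one of the guide itself cannot be told apart. The replicate numbers come from the labels, which do not say whether a PBS and an SCF library of the same number came from the same culture. The p-values measure only the spread between these libraries, which may be technical.

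CRISPR interference recruits KRAB to DNA and lowers transcription near the site that the guide matches. EGR1 is a zinc finger transcription factor and a classic immediate early gene, which growth factor receptors switch on through the ERK pathway. The 9 genes belong to several classes of protein. CD52 is a short glycoprotein held in the membrane by a GPI anchor and is the target of alemtuzumab on lymphocytes. IL2RB is the beta chain shared by the receptors for interleukins 2 and 15. FGFR1 is a receptor tyrosine kinase for fibroblast growth factors, and P2RX5 is an ion channel gated by extracellular ATP. ITGB4 pairs with ITGA6 to bind laminin, HSPG2 codes for perlecan, a heparan sulfate proteoglycan of basement membranes, and ATP1B2 is a beta subunit of the sodium pump. BOK, a relative of BAX and BAK1 in the BCL2 family, and CRYM, which binds thyroid hormone and NADP, act inside the cell.

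The guide directed to EGR1 is shown first because it sets the guide groups apart. The 8 bases next to the PAM, which matter most for binding, are in capitals.
sgEGR1: ggatgacagcgaTAGAACCC
In GRCh38 the sgEGR1 guide matched 1 site without a mismatch, on the plus strand at chr5:138464830-138464849, beside a CGG PAM and 630 bases upstream of the start of EGR1 (chr5:138465479-138469303, plus strand). The 140 bases of the plus strand around it, chr5:138464770-138464909, are given with the matched bases in capitals.
target: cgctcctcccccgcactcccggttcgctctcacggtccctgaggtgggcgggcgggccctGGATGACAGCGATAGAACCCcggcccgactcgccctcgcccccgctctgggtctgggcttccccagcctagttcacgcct
The study places its targeted element farther from the EGR1 start than this site, so whether the printed guide is the one carried by these libraries is not settled here. Allowing up to 3 mismatches and requiring an NGG PAM, 3 further sites matched sgEGR1, each with 3 mismatches. No site of sgEGR1, at up to 3 mismatches, lay within 100 kb of the start of any of the 9 genes. Promoters, taken as the 250 bases before and 50 after a gene's start, were matched for 4 of the 9 genes (CD52, BOK, HSPG2 and ATP1B2) in the RefSeq table for GRCh38. For BOK the 250 bases, chr2:241558495-241558744, lay inside the gene span given below, so that promoter belongs to another start than the one printed. The letters GCGTGGG, which the study names as an EGR-like motif, stood on either strand in 0 of these 4 and in 6.98% of all 35116 promoters. Other forms of the motif were not sought, so this count does not show that the 4 promoters lack an EGR1 site.

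Levels are given as CPM, counts per megacount of the TMM-scaled library total, and values of a group are in the order of replicates 1, 2 and 3. Library totals ran from 23.5 to 32.04 M counts. EGR1, the targeted gene, was at 10.9, 5.99 and 7.45 CPM in sgControl PBS and 2.04, 1.12 and 0.977 CPM in sgEGR1 PBS. After SCF it was at 208, 239 and 171 CPM in sgControl and 40.4, 57.4 and 204 CPM in the libraries labelled sgEGR1. The library labelled sgEGR1 SCF replicate 3 lay inside the sgControl SCF range for the gene that the guide should lower, and so goes against its label. Each result after SCF is therefore given with and without it. Replicate 1 of every group also stood apart, since the replicate number changed 2921 of 15492 genes. Of the 15 erythroid markers checked, 0 stayed below 1 CPM in every library, and globin HBB was at 13398 to 16032 CPM. The fetal globin HBG1 ran from 0 to 166 CPM.

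Per kilobase of exon, ATP1B2 had the highest level of the 9 genes in sgControl PBS cells, at 44.1 CPM per kb. CD52 (12.3), ITGB4 (11.4), BOK (4.23) and HSPG2 (3.44 CPM per kb) followed. P2RX5 (1.59), IL2RB (1.25), FGFR1 (0.724) and CRYM (0.520 CPM per kb) were lowest. The length used was the union of all annotated exons of a gene, so the order depends on it. FGFR1, with 17201 such bases, averaged 12.5 CPM in sgControl PBS, above CD52 at 11.5 CPM. The erythroid precursors thus held low levels of transcripts for lymphocyte surface proteins. Lymphoid markers did not accompany them. In every library 10 of 10 T and NK cell markers and 5 of 5 B cell markers stayed below 1 CPM. Of these, CD3E, CD2 and MS4A1 were at 0. Some markers of other lineages were abundant, as given further below.

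CD52 (chr1:26317958-26320523, plus strand) was lower in sgEGR1 than in sgControl cells after PBS. It was at 19.1, 8.47 and 6.94 CPM in sgControl PBS and at 10.9, 5.33 and 5.02 CPM in sgEGR1 PBS. Each sgEGR1 library lay below the sgControl library of its own number, at 56.7%, 62.9% and 72.4% of its level, while the groups overlapped because replicate 1 was high in both. After SCF, CD52 was at 19.5, 7.77 and 8.36 CPM in sgControl and 10.98, 6.48 and 11.5 CPM in sgEGR1. The sgEGR1 libraries of replicates 1 and 2 were again below their sgControl counterparts, at 56.3% and 83.5%, but replicate 3 was above, at 137%.

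IL2RB (chr22:37118666-37175118, minus strand) separated the PBS groups without overlap. It was at 10.8, 7.92 and 8.57 CPM in sgControl PBS and 5.88, 4.29 and 5.41 CPM in sgEGR1 PBS. After SCF it was at 12.5, 6.80 and 8.36 CPM in sgControl and 6.07, 5.65 and 8.40 CPM in sgEGR1. Replicates 1 and 2 of sgEGR1 SCF stayed below every sgControl SCF library, whereas the replicate 3 library matched the sgControl library of its number, at 100.5%.

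FGFR1 (chr8:38400215-38468834, minus strand) was at 17.02, 9.33 and 11.02 CPM in sgControl PBS and 10.4, 5.999 and 6.42 CPM in sgEGR1 PBS. It was thus lower with sgEGR1 in each replicate number, at 61.3%, 64.3% and 58.3% of the sgControl level. After SCF the levels were 17.8, 10.6 and 9.30 CPM in sgControl and 11.4, 7.98 and 9.37 CPM in sgEGR1. The sgEGR1 libraries stood at 64.1%, 75.01% and 101% of their sgControl counterparts, so that only replicate 3 showed no lower level.

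As counted, P2RX5 (chr17:3672199-3696240, minus strand) had the largest reduction of the 9 genes after PBS. Its 6.47, 6.10 and 6.71 CPM in sgControl PBS compared with 3.53, 3.47 and 2.90 CPM in sgEGR1 PBS, and every sgEGR1 library was below every sgControl library. After SCF it was at 6.57, 4.70 and 5.75 CPM in sgControl and 1.97, 3.09 and 5.50 CPM in sgEGR1. Replicates 1 and 2 of sgEGR1 SCF were below all sgControl SCF libraries, at 29.96% and 65.7% of their counterparts, and replicate 3 was among them, at 95.5%. P2RX5 shares 1743 of its 4031 exonic bases with a readthrough transcript on the same strand, P2RX5-TAX1BP3. That transcript was at 9.899, 12.01 and 5.24 CPM in sgControl PBS and 9.24, 6.71 and 16.3 CPM in sgEGR1 PBS. After SCF it was at 14.5, 20.5 and 13.2 CPM in sgControl and 20.98, 18.1 and 18.7 CPM in sgEGR1. It was thus higher with sgEGR1, opposite to P2RX5, in PBS replicate 3 and in SCF replicates 1 and 3. In the other pairs it was lower, as P2RX5 was. How the counting split the shared reads is not stated, so the level of P2RX5 and its guide difference are both uncertain.

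BOK (chr2:241551424-241574131, plus strand) was the third gene without overlap after PBS. It was at 14.7, 10.1 and 9.15 CPM in sgControl PBS and 8.86, 5.48 and 4.85 CPM in sgEGR1 PBS. After SCF, BOK was at 17.01, 10.97 and 10.3 CPM in sgControl and 9.94, 7.18 and 10.7 CPM in sgEGR1. The first and second sgEGR1 SCF libraries were below all sgControl SCF libraries, and the third stood at 104% of its counterpart.

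CRYM (chr16:21238874-21303083, minus strand) had the largest increase of the 9 genes, at 3.14, 1.18 and 1.28 CPM in sgControl PBS and 5.32, 2.65 and 4.68 CPM in sgEGR1 PBS. The sgEGR1 libraries held 169%, 224% and 365% of the sgControl level of their number, and the groups overlapped only because sgControl replicate 1 exceeded sgEGR1 replicate 2. After SCF it was at 2.41, 1.27 and 1.35 CPM in sgControl and 6.07, 2.60 and 1.44 CPM in sgEGR1. Replicates 1 and 2 of sgEGR1 SCF exceeded every sgControl SCF library, while replicate 3 was at 106% of its counterpart. CRYM was the least abundant of the 9 genes, with 30 to 176 counts in a library.

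HSPG2 (chr1:21822244-21937310, minus strand) and ITGB4 (chr17:75721328-75757818, plus strand), the basement membrane proteoglycan and the laminin-binding integrin chain, were higher with sgEGR1. HSPG2 was at 97.2, 43.8 and 45.96 CPM in sgControl PBS and 118, 61.7 and 59.3 CPM in sgEGR1 PBS. ITGB4 was at 115, 56.8 and 58.7 CPM in sgControl PBS and 149, 86.2 and 82.6 CPM in sgEGR1 PBS. The replicate 1 libraries were above every library of the other numbers in both genes, so the guide groups overlapped although each number gave the same direction. After SCF, HSPG2 was at 88.3, 48.1 and 40.95 CPM in sgControl and 109, 52.1 and 53.2 CPM in sgEGR1. ITGB4 was at 124, 66.5 and 59.97 CPM in sgControl and 157, 86.8 and 69.8 CPM in sgEGR1. In both genes all 3 sgEGR1 SCF libraries were above their counterparts, replicate 3 included, at 130% for HSPG2 and 116% for ITGB4.

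ATP1B2 (chr17:7646627-7657770, plus strand) was lower with sgEGR1, and within each group replicate 1 was the lowest library. It was at 117, 169 and 172 CPM in sgControl PBS and 97.6, 131 and 139 CPM in sgEGR1 PBS, and the groups overlapped. After SCF it was at 108, 149.7 and 148 CPM in sgControl and 89.3, 119.7 and 137 CPM in sgEGR1. The sgEGR1 SCF libraries were at 82.8%, 80.01% and 92.4% of their counterparts, all 3 below.

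**Figure D1:**
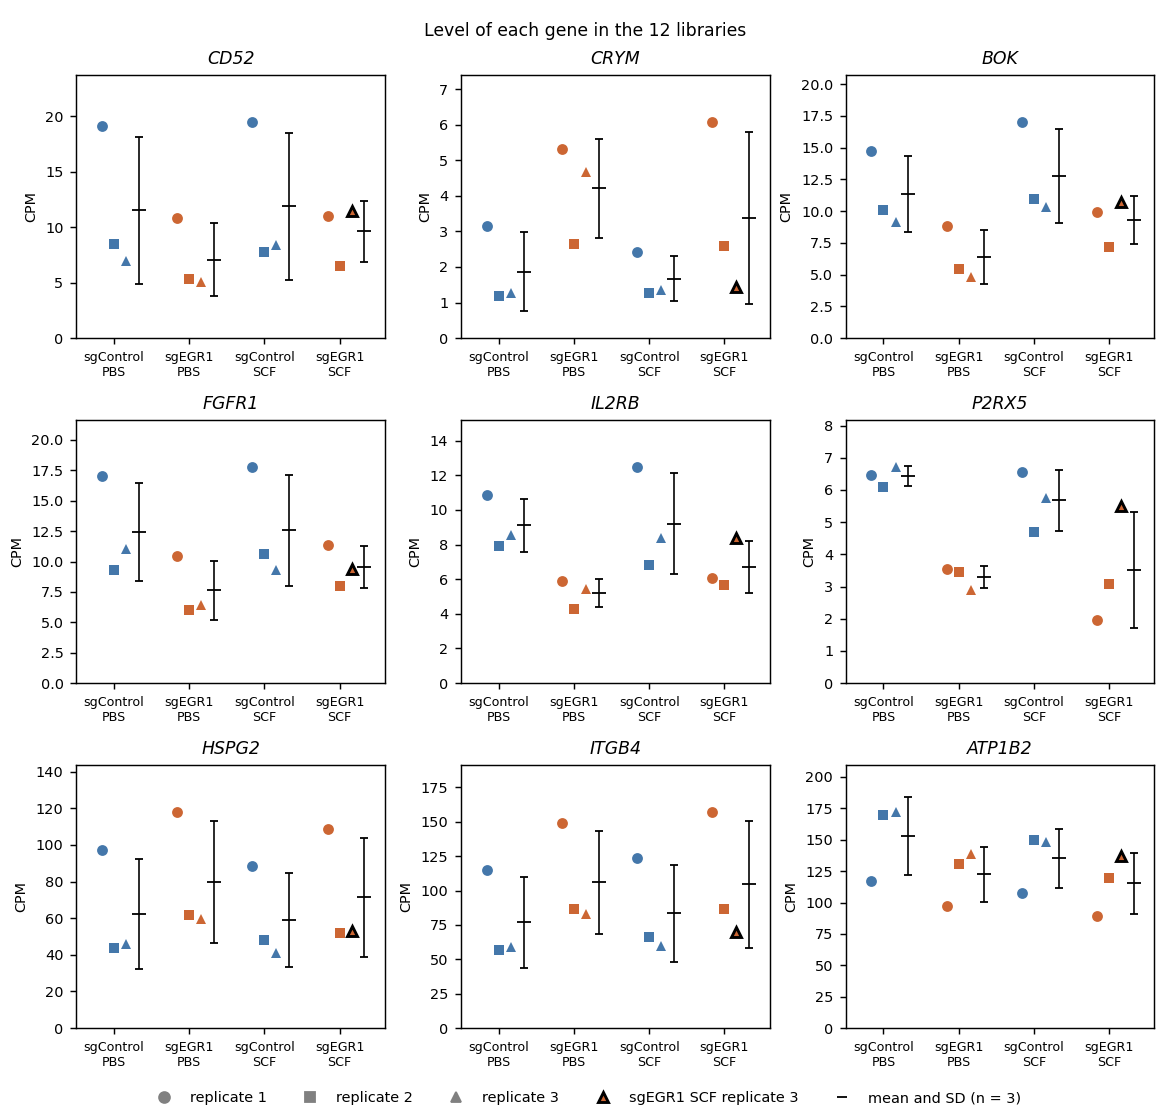
CPM (y axis, from 0) of each gene in the 12 libraries, by group (x axis), with the mean and SD of 3 libraries beside the points. In the outlined library, sgEGR1 SCF replicate 3, CRYM sits at 1.44 CPM and P2RX5 at 5.50 CPM, within the sgControl SCF libraries, and circles show that replicate 1 is high for CD52, HSPG2 and ITGB4 and low for ATP1B2.

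The values that chose the genes can be summed up in fitted differences. On the log2 scale, edgeR (quasi-likelihood fit over all 12 libraries) put sgEGR1 against sgControl after PBS at -0.71 for CD52 (SE 0.46), -0.81 for IL2RB (SE 0.23), -0.72 for FGFR1 (SE 0.30), -0.96 for P2RX5 (SE 0.28), -0.83 for BOK (SE 0.27) and -0.32 for ATP1B2 (SE 0.19). It put CRYM at 1.16 (SE 0.52), HSPG2 at 0.35 (SE 0.41) and ITGB4 at 0.46 (SE 0.38). Leaving out a replicate 1 library moved 6 of these by over 1.5 times. Without sgControl PBS replicate 1, CD52 was at -0.13, FGFR1 at -0.42, CRYM at 1.77, HSPG2 at 0.82 and ITGB4 at 0.87. Without sgEGR1 PBS replicate 1, CD52 was at -1.16, HSPG2 at -0.05, ITGB4 at 0.13 and ATP1B2 at -0.18. Without sgControl PBS replicate 2 or 3, HSPG2 was at 0.15 or 0.17 and ITGB4 at 0.28 or 0.30, and without sgEGR1 PBS replicate 3 HSPG2 was at 0.52. BOK, IL2RB and P2RX5 moved by less when any PBS library was left out. The 6 lower genes were lower in all 3 replicate numbers, as were 14.5% of all tested genes, and the 3 higher genes were higher in all 3, as were 15.8%. Groups did not overlap for 3 lower genes (BOK, IL2RB and P2RX5) and 0 higher genes, beside 4.66% and 4.65% of all tested genes. These counts follow from the choice of genes, and nothing is read from them. After SCF the groups overlapped for all 9 genes, where 3.61% of tested genes were higher and 3.53% lower with sgEGR1 without overlap. Within all 3 numbers, 2 of the 6 lower genes (P2RX5 and ATP1B2) stayed lower (13.2% of tested genes) and 3 of the 3 higher genes stayed higher (13.6%). In bulk RNA, fewer cells that express a gene and less RNA per cell cannot be told apart.

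The SCF libraries were not used for the choice, so the guide difference after SCF was tested as a repeat of the same measure, with the limit that the cultures may be shared. The 9 genes had the sign seen after PBS, 6 lower and 3 higher, but no gene passed the test. The fitted log2 difference was -0.69 for P2RX5 (SE 0.28, 95% interval -1.29 to -0.08) and 1.00 for CRYM (SE 0.52, interval -0.14 to 2.14). The receptor genes IL2RB and FGFR1 were at -0.46 (SE 0.23, interval -0.95 to 0.04) and -0.39 (SE 0.29, interval -1.03 to 0.24). BOK was at -0.46 (SE 0.27, interval -1.04 to 0.12) and CD52 at -0.30 (SE 0.45, interval -1.28 to 0.68). HSPG2 and ITGB4 were at 0.27 (SE 0.41, interval -0.63 to 1.17) and 0.33 (SE 0.38, interval -0.51 to 1.16), and ATP1B2 was at -0.23 (SE 0.19, interval -0.65 to 0.19). All 9 adjusted p-values from edgeR were 1.00. Leaving out sgControl SCF replicate 1 turned CD52 to 0.25, and leaving out sgEGR1 SCF replicate 1 turned HSPG2 to -0.17 and ITGB4 to -0.09. The test called 0 of the 9 genes and 0 of 15492 genes (0%), and at an unadjusted p under 0.05 it found 1 of the 9, P2RX5, and 361 of all genes (2.33%). Exact two-sided permutation tests of each gene gave p = 0.2 to 0.8, where 3 against 3 libraries cannot go below 0.1. The median of the 9 differences was -0.30, beside -0.0004 over all tested genes. With DESeq2 in place of edgeR, 5 genes were called and 0 of the 9.

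Same-numbered sgControl and sgEGR1 libraries deviated together, most of all in replicate 1, so the numbers were taken to pair the libraries between guides. The same comparison was fitted with the replicate number as a block. The differences then had a smaller error for the genes that replicate 1 moved most. HSPG2 was at 0.26 (SE 0.05), ITGB4 at 0.32 (SE 0.06) and ATP1B2 at -0.23 (SE 0.04). Of the 9 genes, 8 had an unadjusted p under 0.05 (5.65% of all genes), CD52 being the exception. None of the 9 passed adjustment over all genes (edgeR adjusted p = 0.235 to 0.959), and 2 of 15492 genes did (0.0129%). These were RNA45SN4, a ribosomal RNA precursor, and the readthrough transcript SYS1-DBNDD2, named after their values were seen and uncertain because both share reads with near-identical or overlapping genes.

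With the library labelled sgEGR1 SCF replicate 3 left out, the blocked fit called 3 of the 9 genes among 30 of 15824 genes (0.19%). BOK fell, with a log2 difference of -0.71 (SE 0.09, edgeR adjusted p = 0.0256). ATP1B2 fell by a smaller amount, -0.28 (SE 0.04, edgeR adjusted p = 0.0275). ITGB4 rose, with a difference of 0.39 (SE 0.05, edgeR adjusted p = 0.0256). The other 6 genes had larger or similar differences but did not pass. CRYM was at 1.26 (SE 0.23, edgeR adjusted p = 0.0682), P2RX5 at -1.18 (SE 0.22, edgeR adjusted p = 0.0759) and CD52 at -0.60 (SE 0.13, edgeR adjusted p = 0.162). IL2RB was at -0.64 (SE 0.15) and FGFR1 at -0.47 (SE 0.11), both with edgeR adjusted p = 0.247, and HSPG2 was at 0.24 (SE 0.06, edgeR adjusted p = 0.287). All 9 genes had an unadjusted p under 0.05 in this fit, as did 7.05% of all genes. EGR1 was at -2.19 (SE 0.18, edgeR adjusted p = 0.00145). The blocked fit that kept the library put EGR1 at -1.28 (SE 0.40, edgeR adjusted p = 0.664). The library was set apart by its EGR1 level, so the call of EGR1 depends on that choice and is no test of the guide. It also lay within the sgControl SCF range for 9 of the 9 genes, so leaving it out favours larger differences in most of them. Calls of the 9 genes without this library, here and in the next fit, therefore depend on the same choice and are no test of the guide. A blocked fit was also made to the 5 remaining SCF libraries alone, so that no PBS library entered. Its differences rested on the pairs of replicates 1 and 2, as replicate 3 had no sgEGR1 library left. In that fit 4 of the 9 genes were called among 105 of 15198 genes (0.691%). They were BOK at -0.70, ITGB4 at 0.37, ATP1B2 at -0.29 and CRYM at 1.21 (edgeR adjusted p = 0.0179, 0.00237, 0.0100 and 0.0291). These are the lowest adjusted p-values of the 4 genes over 15 alternative fits, and the highest were 1.00. With the library included, a blocked fit to the 6 SCF libraries called 2 genes (0.0135%) and 0 of the 9. Removal of that library without the block left 0 of the 9 genes called.

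**Figure D2:**
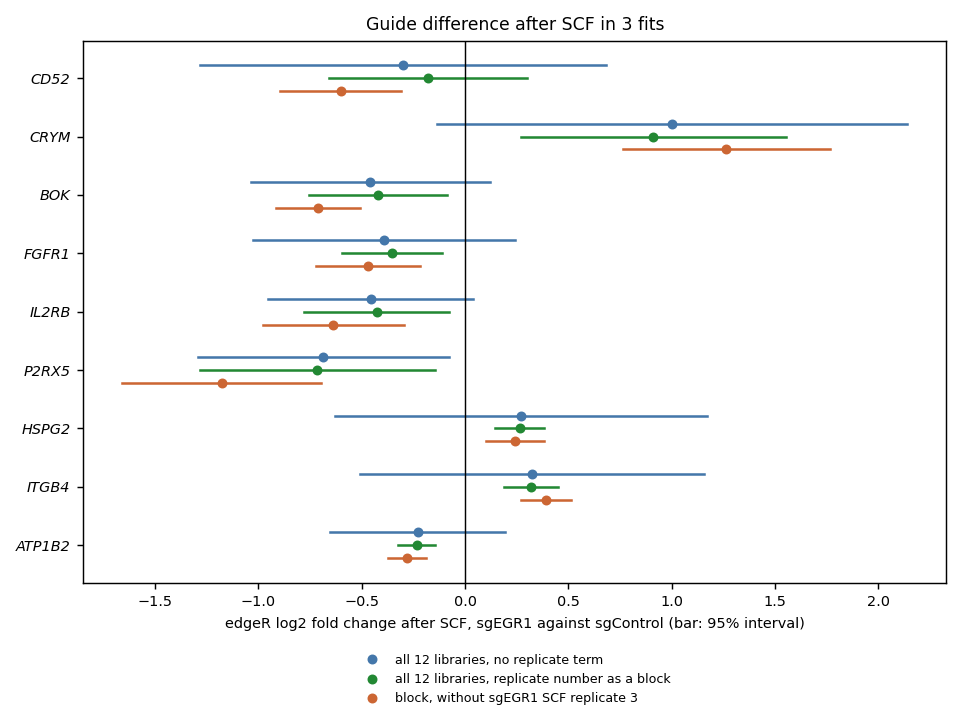
Log2 fold change of each gene after SCF, sgEGR1 against sgControl (x axis), from edgeR in 3 fits, with bars for the 95% intervals. Intervals narrow once the replicate number is a block, most of all for HSPG2, ITGB4 and ATP1B2, and for CD52 the point moves from -0.18 with the block to -0.60 when sgEGR1 SCF replicate 3 is also left out.

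The library labelled sgEGR1 SCF replicate 3 was next placed beside both guide groups. It lay within the sgControl SCF range for 9 of the 9 genes, beside 59.1% of all tested genes. The sgEGR1 SCF libraries of replicates 1 and 2 lay within that range for 2 and 3 of the 9 genes, beside 47.7% and 55% of all genes. On the log2 scale it was nearer to the sgControl SCF mean than to the mean of the other sgEGR1 SCF libraries for 8 of the 9 genes (60.2% of all genes), FGFR1 being the exception. Replicates 1 and 2, each set apart in the same way, were nearer to sgControl for 4 (58.8%) and 3 (52.8%). As a share of the sgControl SCF mean, replicate 3 was at 96.5% for CD52, where the other sgEGR1 SCF libraries averaged 73.5%. P2RX5 was at 96.9% beside 44.5%, IL2RB at 91.2% beside 63.6% and BOK at 84.1% beside 67.0%. CRYM, a gene raised with the guide, was at 85.7% beside 259%. By the same measure ATP1B2 was at 101% beside 77.3%, HSPG2 at 90.0% beside 136% and ITGB4 at 83.7% beside 146%. FGFR1 was at 74.5% beside 77.1%, so it did not set replicate 3 apart. EGR1 was at 98.8% beside 23.7%.

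Range and mean depend on replicate 1, which stood apart in every group. The sgControl library of the same number was therefore also compared, although a pairing of replicates 2 and 3 was not shown. Against that sgControl library, the log2 difference of sgEGR1 SCF replicate 3 was 0.05 for BOK, 0.01 for FGFR1, 0.01 for IL2RB, -0.06 for P2RX5 and 0.08 for CRYM. The same number after PBS had given -0.91, -0.77, -0.66, -1.19 and 1.81. For CD52 the sign turned, from -0.46 after PBS to 0.45 after SCF. Thus 6 genes that differed between guides after PBS in replicate 3 did not keep their difference in replicate 3 after SCF. In replicates 1 and 2 after SCF these 6 genes kept the sign seen after PBS. The PBS values had chosen the genes, so a smaller difference elsewhere can in part follow from the choice. The remaining 3 genes kept the direction of the guide in replicate 3. HSPG2 was at 0.38 after SCF and 0.37 after PBS, ITGB4 at 0.22 and 0.49, and ATP1B2 at -0.11 and -0.31. For 7 of the 9 genes the difference in replicate 3 was smaller in size than in replicates 1 and 2 after SCF (33.4% of all genes), and for 2 of the 9 after PBS (34%). Such a position in 1 library has no replicate and was given no test.

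**Figure D3:**
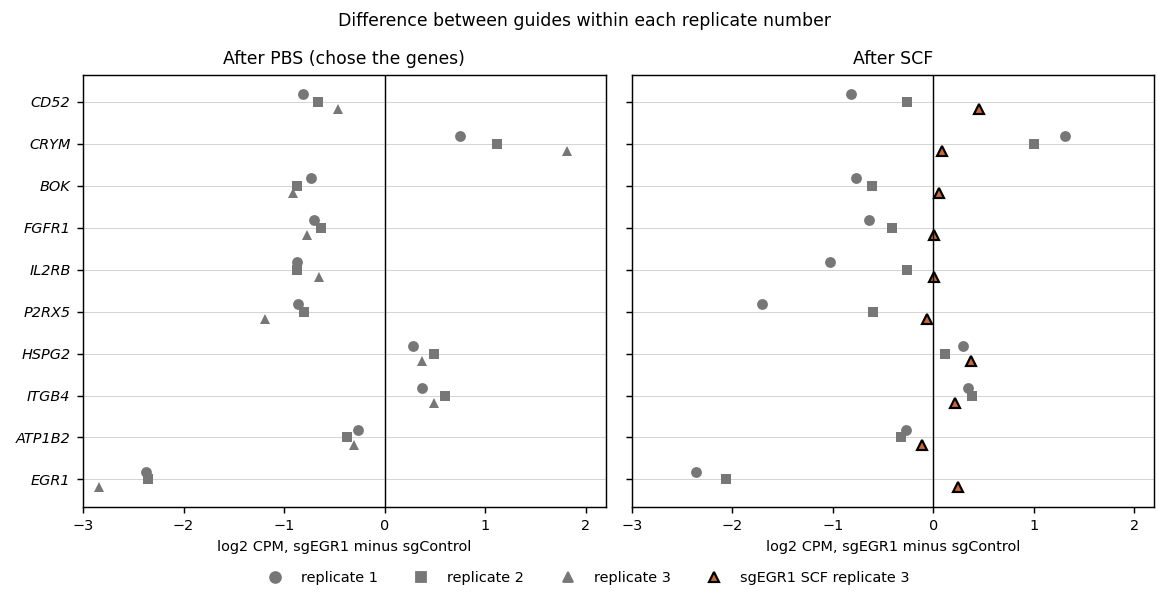
Log2 CPM of sgEGR1 minus that of the sgControl library of the same replicate number (x axis) for the 9 genes and EGR1, after PBS (left) and after SCF (right). After SCF the outlined triangles of replicate 3 lie at 0.45 for CD52 and 0.25 for EGR1 and near 0 for CRYM, BOK, FGFR1, IL2RB and P2RX5, while HSPG2 at 0.38 and ITGB4 at 0.22 stay on the side of the guide.

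The replicate number moved most of these genes. With the number as a 2-parameter term in the blocked fit, 7 of the 9 genes were called, beside 18.9% of all tested genes. Averages over the 4 libraries of a number show the pattern. HSPG2 averaged 103.0 CPM in replicate 1, 51.4 CPM in replicate 2 and 49.9 CPM in replicate 3, a fitted 2.00-fold and 2.07-fold above replicates 2 and 3 (edgeR adjusted p = 2.46e-07). ITGB4 averaged 136, 74.1 and 67.8 CPM (edgeR adjusted p = 5.38e-07). The replicate 1 libraries of HSPG2, at 88.3 to 118 CPM, all lay above the others, at 40.95 to 61.7 CPM, whichever guide they carried. ATP1B2 went the other way, with 102.9, 142 and 149 CPM (edgeR adjusted p = 3.66e-06). CD52 averaged 15.1 CPM in replicate 1 and 7.01 and 7.95 CPM in replicates 2 and 3 (edgeR adjusted p = 0.00279). FGFR1, CRYM and BOK were also higher in replicate 1, by 1.66-fold, 2.22-fold and 1.504-fold over replicate 2 (edgeR adjusted p = 4.09e-04, 0.00878 and 0.0135). IL2RB (edgeR adjusted p = 0.0654) and P2RX5 (edgeR adjusted p = 0.621) did not pass. When the library labelled sgEGR1 SCF replicate 3 was left out, IL2RB passed as well (edgeR adjusted p = 0.0355). The labels give no day, batch or passage for the numbers, so what set replicate 1 apart was not tested.

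**Figure D4:**
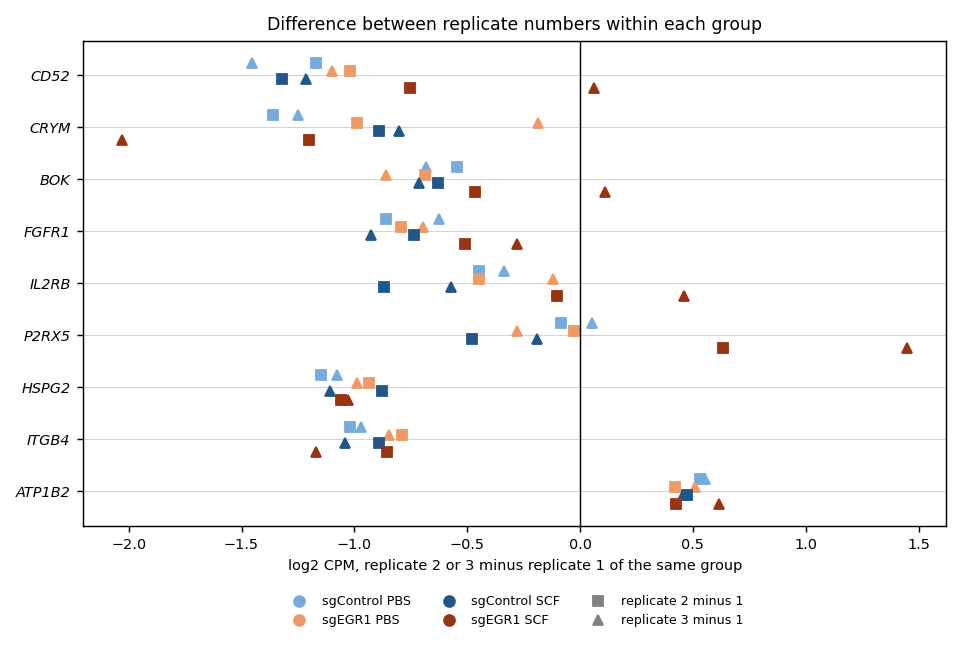
Log2 CPM of replicate 2 (squares) or replicate 3 (triangles) minus replicate 1 of the same group (x axis), in each of the 4 groups (colours). HSPG2 and ITGB4 lie below 0 and ATP1B2 above 0 in every group, whereas for CD52, BOK, IL2RB and P2RX5 the dark triangle of sgEGR1 SCF lies to the right of the others.

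Whether 1 h of SCF moved these genes was asked with the average response over both guides, which does not use the guide difference. EGR1 rose by 5.44 on the log2 scale (SE 0.44). None of the 9 genes was called, beside 9.03% of all tested genes. The fitted responses ran from -0.24 for CRYM to 0.36 for BOK (SE 0.19, edgeR adjusted p = 0.300). CD52 was at 0.25 (SE 0.32, 95% interval -0.46 to 0.95), and for IL2RB and FGFR1 the responses were 0.19 (SE 0.16) and 0.17 (SE 0.21). HSPG2, ITGB4 and ATP1B2 were at -0.12 (SE 0.29), 0.05 (SE 0.27) and -0.13 (SE 0.14). Split by guide, and given with no test because the PBS libraries enter, the BOK response was 0.17 in sgControl and 0.55 in sgEGR1 cells. The blocked fit that left out sgEGR1 SCF replicate 3 put the latter at 0.30. For CD52 the responses were 0.04 in sgControl and 0.46 in sgEGR1 cells, the latter 0.12 in the blocked fit without that library.

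Partners and relatives of the 9 genes were examined as 9 lists with 137 genes, 77 of which could be tested. After SCF, 0 of the 77 differed between guides by adjusted p. An unadjusted p under 0.05 was found for 4 (LAMB3, ATP1B3, FXYD5 and JAK1), beside 2.33% of all tested genes. In the integrin list, 12 of 25 genes could be tested, and ITGA2B, the platelet integrin alpha chain, was the 1 gene called without sgEGR1 SCF replicate 3 in the blocked fit, at -0.43 (SE 0.07, edgeR adjusted p = 0.0314). ITGA6, the partner of ITGB4, averaged 1.01 CPM over the 12 libraries and differed by -0.07 on the log2 scale after SCF (edgeR adjusted p = 1.00). The average SCF response was called higher in 4 and lower in 2 of the 77 genes, together 7.79%, beside 9.03% of all tested genes. MCL1, which protects cells from BAX and BAK1, rose by 0.93 (adjusted p = 4.08e-08 in edgeR), from a mean of 118 CPM after PBS to 224 CPM after SCF. BAK1 rose by 0.35, and FGFRL1, an FGF receptor without a kinase domain, rose by 0.33. LAMA5, a laminin chain, fell by 0.34, and agrin (AGRN) fell by 0.17. The median responses of the 9 lists lay between -0.10 and 0.22, beside -0.004 over all genes. The replicate number was called for 19 of the 77 genes (24.7%), beside 18.9% of all tested genes. Among them COL18A1, LAMC1 and PLEC, which binds ITGB4 inside the cell, were higher in replicate 1. ITGB1, ITGA2B and STAT5A were lower in replicate 1. Of the GPI-anchored antigens, SEMA7A was higher and CD55 lower in replicate 1.

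Among markers of other lineages, 7 of 7 myeloid and 6 of 6 endothelial or stromal markers stayed below 1 CPM in every library. In the mast cell list 3 of 6 (CPA3, HDC and FCER1A) stayed below 1 CPM, but the tryptases TPSAB1 and TPSB2 were abundant. That list summed to 147 to 332 CPM in sgControl PBS, 193 to 359 CPM in sgEGR1 PBS, 148 to 346 CPM in sgControl SCF and 195 to 357 CPM in sgEGR1 SCF. TPSAB1 was at 197 to 209 CPM in replicate 1 and 84.9 to 127 CPM in the others (edgeR adjusted p = 2.52e-06 for the number), so it moved with HSPG2 and ITGB4. TPSAB1 and TPSB2 are near-identical copies and their split is uncertain. In the megakaryocyte list 6 of 7 markers stayed below 1 CPM, and ITGA2B ran from 12.01 to 35.2 CPM with the highest value in sgEGR1 SCF replicate 3. In the epithelial list CDH1 and EPCAM were at 138 to 171 CPM, while KRT5, KRT14 and LAMA3 were at 0. The list summed to 299 to 333 CPM, with overlapping ranges in the 4 groups. The part of these markers in the results above was not tested.

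Genes with the profile most like that of the 9 genes were ranked over the 12 libraries by Pearson's r with the mean standardised log2 CPM of each direction, among 11170 other genes of at least 2 CPM. For the 6 lower genes these were FNDC4 (r = 0.97), KDELR3 (r = 0.94), ZNF91 (r = 0.93), ELAPOR2 (r = 0.93) and EPHX1 (r = 0.93). FNDC4 averaged 4.13 CPM in sgControl PBS and 1.63 CPM in sgEGR1 PBS, then 4.57 CPM in sgControl SCF and 2.34 CPM in sgEGR1 SCF. For the 3 higher genes they were PLIN2, SYNJ2, RCSD1, ASNS and CTSB, with r between 0.970 and 0.974. All 5 of these were called for the replicate number (edgeR adjusted p = 3.59e-06 to 2.49e-04), and PLIN2, which coats lipid droplets, averaged 162 CPM in replicate 1 and 120.5 CPM in the others. These r values rank genes on libraries that share the guide and the replicate number, and carry no test.

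Neighbouring genes touch some of the 9. HSPG2 shares 2122 exonic bases with LDLRAD2 on the opposite strand, which had at most 0.149 CPM. BOK shares 201 with the antisense BOK-AS1, at most 0.128 CPM, CD52 shares 25 with UBXN11 (19.3 to 27.9 CPM), and FGFR1 shares 138 with LETM2 (2.64 to 5.35 CPM). Whether strand was used in counting is not stated. CRYM, IL2RB, ITGB4 and ATP1B2 share no exonic base with another annotated gene.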

How the data were processed

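RNA-seq of HUDEP-2 cells was examined in 12 libraries, 3 for each of 4 groups taken from the labels. The table deposited by the authors holds estimated counts per gene, made with StringTie from reads that HISAT2 had placed on hg38, per the labels and the study's methods. The counts were not scaled, 0 values were not whole numbers, replicates were not pooled, and the number of further sample columns was 0. The annotation release is not given in the sources used here. Labels and methods differ on the library kit, and the use of strand in counting is not stated. The table codes the guides as SCR and SG2. SG2 was taken as sgEGR1, the sole construct in the labels beside the scrambled guide, and NoSCF as PBS.

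edgeR 4.0.16 in R 4.3.3 was used (filterByExpr, TMM, quasi-likelihood F test, 1 coefficient per group, all 12 libraries). In each library at least 99.9% of counts fell in the 15492 genes tested, and a floor of 3 counts was 0.0937 to 0.128 CPM. The intervals given reflect the spread between these libraries, and reads were counted without molecular identifiers. Calls were made at an adjusted p under 0.05 (Benjamini-Hochberg over all genes tested). Log2 CPM used a prior count of 2. Tested comparisons were the guides after SCF, the average SCF response and the replicate number. The 9 genes and the lists were chosen with earlier results of these data known. The rule for named genes was all 9 genes and EGR1, list genes called in a tested comparison (at most 3 a list by lowest p), and the 5 genes with the highest r to each direction. List genes counted at an unadjusted p under 0.05 were named after their values were seen. Some items that these rules cover are not reported here.

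To check whether the replicate numbers pair libraries, deviations from the group means were correlated between libraries of 1 number. Between guides r was 0.232, 0.103 and 0.119 after PBS and 0.269, 0.102 and 0.126 after SCF, all above 0.1, so blocked values are given beside the guide results. Between PBS and SCF libraries r ran from 0.00766 in replicate 2 to 0.272 in replicate 1, both in sgControl. As some values were below 0.1, the numbers were not taken to pair them. The blocked fits to all 12 libraries still used the same replicate term for both treatments. No replicates agreed within sampling noise (chi-square per degree of freedom 4.40 to 21.1). On simulated counts with 200 genes changed 2-fold, edgeR recovered 186 for the guide comparison after SCF, with 11 false calls among 15174 genes, and 184 with the block, with 9 false calls. For the average SCF response it recovered 192, with 8 false calls among 15166 genes. Recovery for the guides was nearly the same with and without the block. In the data the block lowered the SE of HSPG2 after SCF from 0.41 to 0.05. The numbers recovered are therefore no measure of power for the 9 genes, most of which differed by less than 2-fold after SCF. Guide matches were sought in GRCh38 and gene positions taken from GENCODE v44. DESeq2 1.42.0, other size factors, no filter on low counts, the replicate block and leaving out libraries were the alternatives.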

Additional observations from a re-analysis of the deposited data

How the results depend on the processing

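The guide comparison after SCF called 0 genes without the block. Leaving out 1 library in turn gave 0 to 2 genes, and DESeq2 gave 5. The 2 were EGR1 and BZW1-AS1 without the library labelled sgEGR1 SCF replicate 3, which was set apart by its EGR1 level. With the replicate block 2 genes were called and 0 of the 9, which changed no other call of this comparison, and the blocked fit to the 6 SCF libraries gave 2. Without sgEGR1 SCF replicate 3 the block gave 30 genes with 3 of the 9. The blocked fit to the SCF libraries alone then gave 105 genes with 4 of the 9, from the pairs of replicates 1 and 2. The calls without that library depend on the choice to leave it out and are no test of the guide. Replicates 2 and 3 alone gave 2 genes. The fits to SCF libraries with the block and those to replicates 2 and 3 were chosen after seeing the data. Other size factors, no filter on low counts and the 6 SCF libraries without the block gave 0 calls.

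The average SCF response called 1399 genes and 0 of the 9. The replicate block gave 2799 genes and 2 of the 9, BOK at 0.38 (edgeR adjusted p 0.0352) and ATP1B2 at -0.13 (edgeR adjusted p 0.00841). The same block without sgEGR1 SCF replicate 3 gave 2269 genes and 2 of the 9. Replicates 2 and 3 alone gave 1 of the 9, BOK at 0.47 (edgeR adjusted p 0.0341). The numbers were not taken to pair PBS with SCF libraries, so these fits rest on a number alone.

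Directions that turned belonged to differences within the replicate spread. After SCF, leaving out 1 library moved CD52 from -0.53 to 0.25, HSPG2 from -0.17 to 0.68 and ITGB4 from -0.0892 to 0.72, and CD52 was at 0.15 in replicates 2 and 3 alone. After PBS, HSPG2 ran from -0.0469 to 0.82 (the former without sgEGR1 PBS replicate 1). For the average response the ranges were -0.0271 to 0.54 for CD52, -0.61 to 0.0625 for CRYM, -0.28 to 0.10 for P2RX5, -0.33 to 0.12 for HSPG2 and -0.16 to 0.26 for ITGB4, with P2RX5 at 0.0737 in replicates 2 and 3 alone. Between guides, each turned sign came from leaving out a replicate 1 library (sgControl SCF for CD52, sgEGR1 SCF for HSPG2 and ITGB4). For the average response, libraries of every number turned a sign in ITGB4 or P2RX5, whose values were near 0. The cause was not tested. For the replicate number, 7 of the 9 genes were called with DESeq2, with other size factors and with no filter, and 8 without sgEGR1 SCF replicate 3.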
